A study of Mus musculus with 12 samples.

Results

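Caveolae are flask-shaped pits of the plasma membrane, and the genes of their coat and neck were followed in mouse marrow stromal cells whose actin cytoskeleton had been disturbed. The members were 7 genes chosen by symbol for their place in the caveola: the caveolins Cav1 and Cav2, the cavins Ptrf (cavin-1), Sdpr (cavin-2) and Prkcdbp (cavin-3), the membrane-bending ATPase Ehd2 and the F-BAR protein gene Pacsin2. All 7 were found among the 23358 rows of the deposited gene table, and all 7 passed the filter on low counts that kept 13534 genes for testing. The table lists the cavins under older symbols, and they are now called Cavin1, Cavin2 and Cavin3.

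A caveola forms when caveolins, hairpin proteins inserted in the inner leaflet of the membrane, assemble into oligomers that bind cholesterol and are then wrapped by a coat of cavins. In knockout mice, loss of Cav1 or of Ptrf removes caveolae from most tissues, whereas Cav2 joins oligomers of Cav1 and depends on it for transport out of the Golgi apparatus. Caveolae flatten when the membrane is stretched, are tethered to actin stress fibres, and are most abundant in adipocytes, endothelial cells and muscle cells.

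The cells were mouse bone marrow-derived mesenchymal stem cells (BMSCs), adherent marrow cells able to form bone, fat and cartilage. The group CytoD+CK received cytochalasin D, a fungal toxin that blocks actin filament growth by capping barbed ends, together with CK666, which inhibits the branch-nucleating Arp2/3 complex. The group CK received CK666 without cytochalasin D, the group CytoD received cytochalasin D without CK666, and the group Ctrl was untreated, each with 3 libraries. All 4 groups shared medium with 10% fetal bovine serum and plating at 10000 cells per square centimetre 1 day ahead of treatment. Treatment lasted 24 h in CytoD+CK, CK and CytoD, and no such time is given for Ctrl. Mouse strain, age, number of animals, passage and compound concentrations were not given in these sources, nor was a vehicle named for Ctrl. The labels do not say whether replicates were separate animals or cultures, so the p-values rest on library-to-library spread that may be technical.

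The 12 libraries held between 48930210 and 69269716 gene counts, every count was even, and the ribosomal RNA row Rn45s took 1.86% to 4.52% of them. Of 9 marrow stromal markers, Pdgfra, Pdgfrb, Cxcl12 and Vcam1 were at 172 CPM or more in the mean of every group (CPM, the usual count unit relative to library size, after TMM scaling), while Thy1 averaged 0.0118 to 0.0263 CPM and Lepr and Nt5e averaged below 1 CPM in every group. The stromal marker Eng averaged 1.99 to 2.3 CPM by group and Ly6a 8.51 to 69.1 CPM. The endothelial marker Emcn and the macrophage markers Ptprc and Emr1 had no count in any library, and the summed 7 endothelial markers did not exceed 1.69 CPM. The macrophage markers Cd68 and Csf1r averaged 1.12 to 1.95 CPM and 1.64 to 3.05 CPM by group. The summed 5 macrophage markers lay between 2.93 and 4.47 CPM. CK replicate 3 stood apart from CK replicates 1 and 2, the log2 difference having a median size of 0.289 and 0.276, against 0.126 between replicates 1 and 2, and these differences went with gene length across genes (Pearson r = 0.377 and 0.465, genes not being independent). Calls of members that leaving out this library changes are given with and without it. Counts of members without overlap, other listed genes, markers and pattern distances are given only with it.

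The promoter sequences of 4 members are shown because these genes carry the contrasts that follow: Cav1, the member with the lowest level, Cav2, its neighbour on the chromosome with much higher counts, Sdpr, the member with the largest changes, and Ptrf, the most abundant member. Promoters matched 6 of the 7 members in the RefSeq table (build GRCm38.p6), and each window covers 250 bases before and 50 bases after the annotated start, 5′ to 3′ on the gene's strand. Cav1 and Ptrf each have 2 RefSeq promoters, and only the one nearest the deposited gene start was searched and shown. For Cav2 the annotated start lies 156 bases from the deposited one. Capitals mark matches, on either strand, to motifs named for the TATA box, CCAAT box, GC box, TEAD site and AP-1 site. The TATA box was searched as TATAAA. The CCAAT box was searched under those letters, and the TEAD site was searched as GGAATG. The GC box was searched as GGGCGG. The AP-1 letters were TGANTCA, with N for any base.
Cav1 promoter, chr6:17306085-17306384 (+): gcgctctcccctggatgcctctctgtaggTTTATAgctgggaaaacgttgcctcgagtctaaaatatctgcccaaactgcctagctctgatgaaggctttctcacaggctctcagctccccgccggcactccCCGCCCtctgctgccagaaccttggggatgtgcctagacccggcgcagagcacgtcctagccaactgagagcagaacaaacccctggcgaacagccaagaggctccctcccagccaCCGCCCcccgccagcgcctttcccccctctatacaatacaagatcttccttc
Cav2 promoter, chr6:17280935-17281234 (+): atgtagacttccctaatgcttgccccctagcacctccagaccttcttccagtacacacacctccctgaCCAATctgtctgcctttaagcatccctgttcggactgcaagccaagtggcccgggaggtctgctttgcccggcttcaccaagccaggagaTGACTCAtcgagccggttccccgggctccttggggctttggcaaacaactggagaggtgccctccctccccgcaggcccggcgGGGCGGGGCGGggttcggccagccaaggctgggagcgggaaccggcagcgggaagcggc
Sdpr promoter, chr1:51288876-51289175 (+): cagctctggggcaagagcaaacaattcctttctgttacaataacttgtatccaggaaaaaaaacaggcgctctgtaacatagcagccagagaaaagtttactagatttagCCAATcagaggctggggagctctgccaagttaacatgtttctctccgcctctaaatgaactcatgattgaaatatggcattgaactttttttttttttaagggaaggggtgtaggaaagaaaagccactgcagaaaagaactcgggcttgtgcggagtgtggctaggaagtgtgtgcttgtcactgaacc
Ptrf promoter, chr11:100970568-100970867 (-): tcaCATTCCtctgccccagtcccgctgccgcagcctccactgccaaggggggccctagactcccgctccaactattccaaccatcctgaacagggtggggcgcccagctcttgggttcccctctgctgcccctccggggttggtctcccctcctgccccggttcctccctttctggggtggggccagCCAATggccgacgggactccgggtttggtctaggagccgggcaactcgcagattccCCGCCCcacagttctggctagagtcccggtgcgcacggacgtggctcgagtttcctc
The Cav1 window held 1 TATA box and 2 GC boxes, and the Cav2 window 1 CCAAT box, 1 AP-1 site and 2 GC boxes that overlap. The Sdpr window held 1 CCAAT box and was the poorest of the 4 in G and C, at 43.3% with 4 CpG dinucleotides, against 66.7% and 17 for Ptrf. Over 32851 promoter windows of the same length, the median was 52.7% G and C with 7 CpG dinucleotides. In the same background a TATA box occurred in 13.6%, a CCAAT box in 37.4%, a GC box in 35.7%, a TEAD site in 14.7% and an AP-1 site in 7.81% of windows. The sterol regulatory element (TCACNCCAC, 1.24% of windows), the E-box (CACGTG, 7.15%), the CArG box (1.63%) and the PPAR element, a direct repeat (0.0396%) were searched in the same way and matched in none of the 6 member windows. These matches describe letters in the windows and were not tested as sites.

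In the coordinates of the deposited table, whose spans overlap the GENCODE M21 (GRCm38) gene of the same or current symbol for all 7 members, Cav2 lies on chromosome 6 from 17281341 to 17289011. Cav1 follows on the same strand from 17306335 to 17341328, with 17323 bases between them. Both spans overlap the GENCODE gene Gm15581, with no shared exon bases. Sdpr spans 51289126 to 51302960 on chromosome 1, Ptrf 100956736 to 100970617 on chromosome 11, Prkcdbp 105480616 to 105482197 and Ehd2 15948987 to 15967535 on chromosome 7, and Pacsin2 83375607 to 83464606 on chromosome 15. Sdpr overlaps the opposite-strand row 9330175M20Rik, which averaged at most 0.0233 CPM in any group. Prkcdbp shares exon bases with Gm45667 in GENCODE, so reads in the shared bases may come from either gene. The size of the shared part is not given here.

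Levels between genes were compared per kilobase of the deposited gene length. Ptrf, whose protein is the obligatory coat subunit, was the most abundant, with 357, 367, 333 and 361 CPM per kilobase in CytoD+CK, CK, CytoD and Ctrl. Ehd2, the ATPase that rings the caveolar neck and holds the pit at the surface, came next with 268, 240, 198 and 229 CPM per kilobase in the same order. Whether the authors' counting lost Cav1 reads cannot be seen from the table, so Cav1 values, its rank and its ratios to other genes are those of the counted reads. Cav1 was last in every group, with 0.579, 0.416, 0.505 and 0.693 CPM per kilobase, where the median of all tested genes was 7.70, 7.72, 7.65 and 7.59. Between 14.9% and 18.5% of tested genes lay below Cav1, depending on the group.

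The order in CK, CytoD and Ctrl was Ptrf, Ehd2, Prkcdbp, Cav2, Pacsin2, Sdpr and Cav1, and in CytoD+CK Cav2 stood above Prkcdbp. Neighbours in this order did not overlap between their 3 libraries in any group. The closest neighbours were Pacsin2 and Sdpr in CK, at 22.1 and 19.0 CPM per kilobase. The gap above Cav1 was the widest in every group, Sdpr being 28.5, 45.7, 23.6 and 8.22 times as high per kilobase in CytoD+CK, CK, CytoD and Ctrl.

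**Figure D1:**
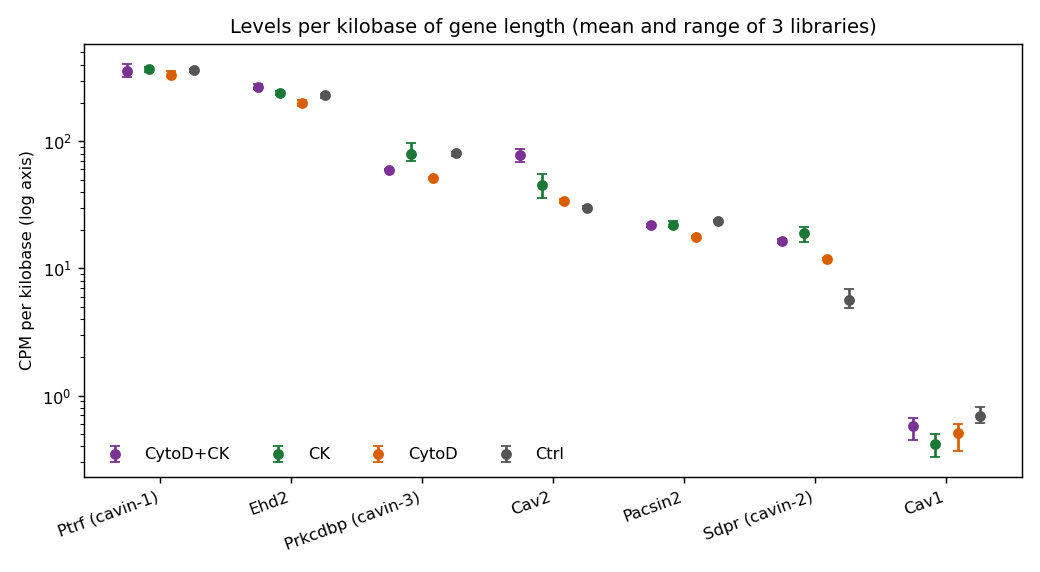
Levels of the 7 caveolae genes per kilobase of gene length, on a log axis in CPM per kilobase. Points are group means and bars the range of 3 libraries, with CytoD+CK, CK, CytoD and Ctrl from left to right for each gene. Ptrf and Ehd2 lie highest and Cav1 lies lowest in all groups, and Cav2 and Sdpr show the widest spread between groups.

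Of the caveolins, Cav2 rose with CK666 and rose most with both compounds, while Cav1 was at 2.24 CPM or less in every library. Cav2 had 170, 195 and 217 CPM in the 3 CytoD+CK libraries, 88.8, 137 and 109 CPM in the CK libraries, 80.5, 82.3 and 87.2 CPM in the CytoD libraries and 72.6, 73.7 and 76.7 CPM in the Ctrl libraries. The CytoD+CK libraries lay above all others, the CK libraries above all CytoD and Ctrl libraries, and the CytoD libraries above the Ctrl libraries, so no groups overlapped. Every adjusted p-value here and below is from the quasi-likelihood test of edgeR after Benjamini-Hochberg adjustment over 13534 genes, and a gene was called at an adjusted p under 0.05.

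Against Ctrl, Cav2 was 2.61-fold higher in CytoD+CK (log2 1.38, SE 0.13, adjusted p = 2.64e-06) and 1.5-fold higher in CK (log2 0.59, SE 0.13, adjusted p = 0.00326). In CytoD its log2 difference from Ctrl was 0.16 (SE 0.13, adjusted p = 0.347, 95% interval -0.09 to 0.42), which did not pass the test, although it did when only these 2 groups were fitted (adjusted p = 0.0116). CytoD+CK exceeded CytoD by 2.33-fold (adjusted p = 2.55e-05) and CK by 1.74-fold (adjusted p = 0.00172). The CytoD+CK calls for Cav2 against Ctrl, CytoD and CK held in all alternative settings.

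Cav2 was also higher in CK than in CytoD, by log2 0.42 (SE 0.13, adjusted p = 0.0221). That call was lost without CK replicate 2, where the value was 0.25 (adjusted p = 0.0862), without CytoD replicate 1 or 2 (adjusted p = 0.0629 and 0.0656) and with only these 2 groups in the fit (adjusted p = 0.0805).

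Cav1 had 46 to 130 counts per library. Since every count was even, fewer reads may lie behind them, and the halved counts were 23 to 65. Its levels were 1.74, 1.83 and 1.24 CPM in CytoD+CK, 0.906, 1.39 and 1.16 CPM in CK, 1.52, 1.01 and 1.66 CPM in CytoD and 2.24, 1.82 and 1.69 CPM in Ctrl. The CK and CytoD libraries all lay below the lowest Ctrl library, and the CytoD+CK libraries overlapped Ctrl. Cav1 fell by 0.73 on the log2 scale in CK (SE 0.25, adjusted p = 0.0300), the only Cav1 difference that passed the test in these comparisons. Without CK replicate 1, Ctrl replicate 1 or Ctrl replicate 2 that call was lost (adjusted p = 0.0940, 0.0917 and 0.0563). Against Ctrl, the Cav1 log2 difference was -0.25 (95% interval -0.72 to 0.21) in CytoD+CK and -0.46 (-0.93 to 0.02) in CytoD.

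Cav1 was a small part of the counted caveolin reads, with the limit on Cav1 counting given above. Per kilobase, Cav1 made up 0.507% to 0.904% of the summed caveolin level in CytoD+CK, 0.899% to 0.943% in CK, 1.08% to 1.67% in CytoD and 1.93% to 2.68% in Ctrl. The ratio of Cav2 to Cav1 within a library does not depend on how libraries are scaled, and it was 110 to 196 in CytoD+CK, 105 to 110 in CK, 58.7 to 91.5 in CytoD and 36.3 to 50.8 in Ctrl. Each treated group lay wholly above Ctrl, by a log2 difference of 1.65, 1.31 and 0.64 for CytoD+CK, CK and CytoD. The exact two-sided permutation test gave p = 0.1 for each, the smallest p that 3 against 3 libraries allow, so this design cannot reach 0.05. The third caveolin, Cav3, which forms caveolae in striated muscle, had no count in any library.

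**Figure D2:**
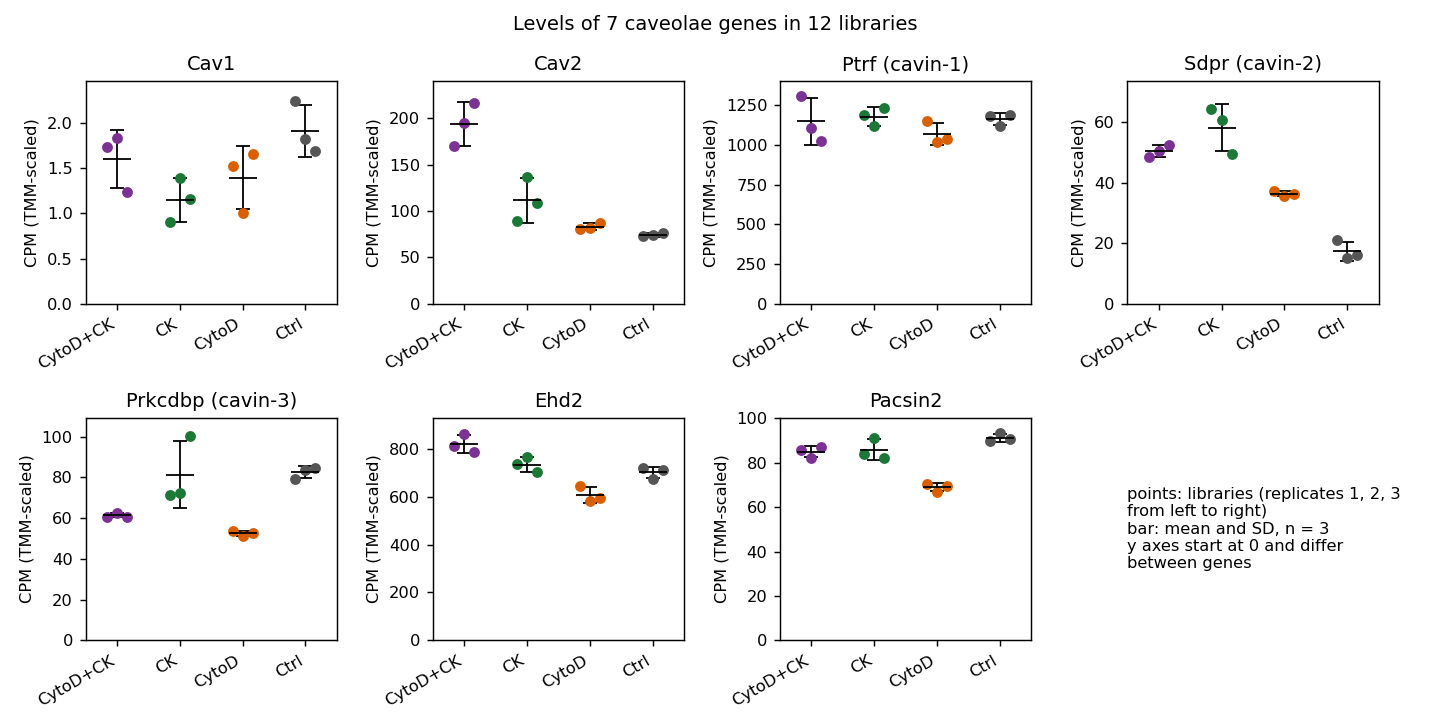
Levels of the 7 caveolae genes in CPM (linear axes from 0, which differ between genes), with 1 point per library and the mean and SD of 3 libraries per group. Groups run from CytoD+CK through CK and CytoD to Ctrl. Cav2 is highest in CytoD+CK, Sdpr is lowest in Ctrl, Pacsin2 and Ehd2 are lowest in CytoD, and Ptrf overlaps between all groups.

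Of the cavins, Sdpr rose in all treated groups, Prkcdbp fell in the groups that received cytochalasin D, and no change of Ptrf passed the test. Sdpr, which binds phosphatidylserine and bends membranes, had 48.4, 50.5 and 52.4 CPM in CytoD+CK, 64.4, 60.5 and 49.5 CPM in CK, 37.2, 35.6 and 36.2 CPM in CytoD and 20.97, 15.1 and 16.2 CPM in Ctrl. The Ctrl libraries were lowest, the CytoD libraries formed a tight middle group, and the CytoD+CK and CK libraries lay above both and overlapped each other. That overlap rested on CK replicate 3, since CK replicates 1 and 2 lay above every CytoD+CK library. Against Ctrl, Sdpr was 2.90-fold higher in CytoD+CK (log2 1.54, SE 0.12, adjusted p = 4.27e-07), 3.34-fold higher in CK (log2 1.74, SE 0.12, adjusted p = 3.27e-07) and 2.09-fold higher in CytoD (log2 1.06, SE 0.12, adjusted p = 2.38e-05).

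Sdpr also exceeded its CytoD level by 1.39-fold in CytoD+CK (adjusted p = 0.00825) and by 1.60-fold in CK (adjusted p = 0.000679). Between CytoD+CK and CK its log2 difference was -0.20 (95% interval -0.43 to 0.02, adjusted p = 0.258). Without CK replicate 3 that difference was -0.295 (adjusted p = 0.0549), also not called. Every Sdpr call held in all alternative settings.

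Prkcdbp, a cavin that binds protein kinase C delta, had 60.8, 62.5 and 60.8 CPM in CytoD+CK, 71.4, 72.4 and 100.2 CPM in CK, 53.9, 51.5 and 52.5 CPM in CytoD and 79.2, 83.9 and 84.5 CPM in Ctrl. The CytoD libraries were lowest and the CytoD+CK libraries next, with no overlap between them or with the other groups. The difference between CytoD+CK and CytoD did not pass the test (log2 0.22, SE 0.11, adjusted p = 0.14). With only these 2 groups in the fit it was called (log2 0.20, adjusted p = 0.00762). In CK, replicates 1 and 2 lay below the lowest Ctrl library and replicate 3 above the highest. Prkcdbp fell by 0.43 on the log2 scale in CytoD+CK (SE 0.11, adjusted p = 0.00537) and by 0.65 in CytoD (SE 0.11, adjusted p = 0.000448), both against Ctrl.

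In CK, the Prkcdbp log2 difference from Ctrl was -0.02 (SE 0.11, adjusted p = 0.893). Without CK replicate 3 it was -0.24 (adjusted p = 0.00288), and with a correction for gene length it was -0.25 (adjusted p = 0.00304), so both settings made a call that the fit of all libraries did not. Between CytoD+CK and CK, Prkcdbp fell by 0.41 (SE 0.11, adjusted p = 0.0278) and by 0.21 without CK replicate 3 (adjusted p = 0.0178). That call was lost without any of CytoD+CK replicates 1, 2 and 3 (adjusted p = 0.0606, 0.0806 and 0.102) and with only these 2 groups in the fit (adjusted p = 0.16). CK exceeded CytoD by log2 0.63 (adjusted p = 0.000652), by 0.42 without CK replicate 3 and by 0.39 with the correction for gene length, and it was called in each.

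Ptrf had 1312, 1109 and 1026 CPM in CytoD+CK, 1187, 1119 and 1235 CPM in CK, 1152, 1022 and 1036 CPM in CytoD and 1181, 1118 and 1189 CPM in Ctrl, and every group overlapped every other. Its log2 differences from Ctrl were -0.02 in CytoD+CK (95% interval -0.19 to 0.15), 0.02 in CK (-0.15 to 0.19) and -0.12 in CytoD (-0.29 to 0.05), with adjusted p = 0.891, 0.865 and 0.306. The sign in CK turned with the scaling of libraries, being -0.01 with RLE size factors.

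The other members were also expressed per Ptrf within each library, a denominator chosen after the values were seen. Cav2 per Ptrf (counts per kilobase) was 0.169, 0.229 and 0.275 in CytoD+CK, 0.0974, 0.160 and 0.115 in CK, 0.0910, 0.105 and 0.110 in CytoD and 0.0800, 0.0858 and 0.0839 in Ctrl. Each treated group lay above Ctrl. Sdpr per Ptrf was 0.0389, 0.0480 and 0.0538 in CytoD+CK, 0.0572, 0.0569 and 0.0422 in CK, 0.0341, 0.0367 and 0.0369 in CytoD and 0.0187, 0.0142 and 0.0143 in Ctrl, again with Ctrl lowest. Prkcdbp per Ptrf was lower in CytoD+CK and in CytoD than in Ctrl, by a log2 difference of -0.40 and -0.53 without overlap, and in CK the libraries overlapped Ctrl. That overlap rested on CK replicate 3 at 0.254, since CK replicates 1 and 2, at 0.189 and 0.203, lay below the lowest Ctrl library at 0.210. Where the libraries did not overlap, the exact two-sided permutation test gave p = 0.1, the smallest possible.

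Within the cavin coat, Sdpr made up 3.28% to 4.34% of the summed cavin level per kilobase in CytoD+CK, 3.26% to 4.59% in CK, 2.88% to 3.08% in CytoD and 1.13% to 1.52% in Ctrl. Ptrf remained the main cavin, at 77.1% or more of that sum in every library. The summed cavins were 4.49 to 6.95 times the summed caveolins per kilobase in CytoD+CK, 7.82 to 12.7 times in CK, 10.7 to 12.8 times in CytoD and 14.3 to 15.0 times in Ctrl. The caveolin sum was nearly all Cav2, and any Cav1 reads lost in counting would lower these ratios.

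**Figure D3:**
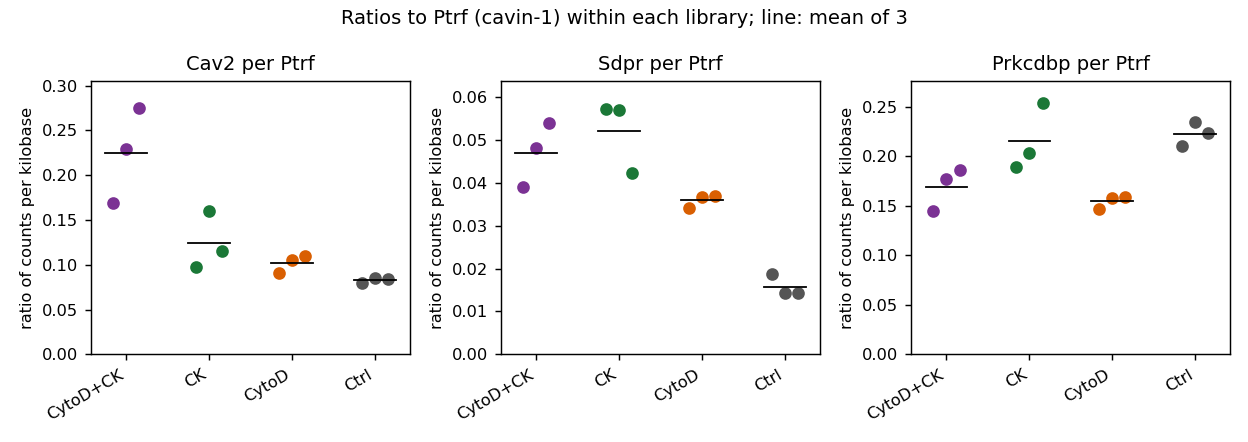
Cav2, Sdpr and Prkcdbp relative to Ptrf within each library, as ratios of counts per kilobase on linear axes from 0. Points are libraries and lines group means, with groups from CytoD+CK through CK and CytoD to Ctrl. Cav2 and Sdpr per Ptrf are lowest in Ctrl, and Prkcdbp per Ptrf is lower in CytoD+CK and CytoD than in Ctrl.

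The neck and membrane-curvature genes Ehd2 and Pacsin2 were lowest in CytoD, and their levels in CytoD+CK and CK lay above the CytoD level. Ehd2 had 810, 862 and 787 CPM in CytoD+CK, 734, 766 and 700.5 CPM in CK, 642, 584 and 593 CPM in CytoD and 719, 673 and 710 CPM in Ctrl. The CytoD libraries were all lowest, the CytoD+CK libraries all highest, and the CK and Ctrl libraries overlapped between them. Against Ctrl, Ehd2 was 1.17-fold higher in CytoD+CK (log2 0.23, SE 0.07, adjusted p = 0.0122) and fell by 0.21 in CytoD (SE 0.07, adjusted p = 0.0234). In CK its log2 difference was 0.07 (95% interval -0.06 to 0.19, adjusted p = 0.441).

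Both Ehd2 calls against Ctrl were near the threshold. That in CytoD+CK was lost without CytoD+CK replicate 2 or Ctrl replicate 2 or 3 (adjusted p = 0.0625, 0.0610 and 0.0519). That in CytoD was lost without CytoD replicate 2 or 3 or Ctrl replicate 1 or 3 (adjusted p = 0.0940, 0.0838, 0.0587 and 0.0666) and with upper quartile scaling (adjusted p = 0.0609). The difference between CytoD+CK and CytoD was larger, at log2 0.44 (SE 0.07, adjusted p = 0.000304). CK exceeded CytoD by log2 0.28 (adjusted p = 0.00531), a call lost with only these 2 groups in the fit (adjusted p = 0.0535).

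Pacsin2, whose F-BAR domain shapes the caveolar membrane, had 85.8, 82.1 and 87.0 CPM in CytoD+CK, 84.2, 91.4 and 82.2 CPM in CK, 70.3, 67.1 and 69.6 CPM in CytoD and 89.8, 93.4 and 90.6 CPM in Ctrl. The CytoD libraries lay below all others. Pacsin2 fell by 0.40 on the log2 scale in CytoD against Ctrl (SE 0.06, adjusted p = 0.00028), and exceeded its CytoD level by log2 0.30 in CytoD+CK (adjusted p = 0.00295) and by 0.32 in CK (adjusted p = 0.00174). Against Ctrl the log2 difference was -0.10 in CytoD+CK (95% interval -0.22 to 0.02) and -0.09 in CK (-0.21 to 0.04), neither past the test. With only CytoD+CK and Ctrl in the fit the CytoD+CK difference was called (-0.13, adjusted p = 0.0305).

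Counted by comparison, 4 of 7 members were called in CytoD+CK against Ctrl, 3 higher and 1 lower, where 46.0% of all tested genes were called, 24.4% higher and 21.6% lower. In CK against Ctrl, 3 were called, 2 higher and 1 lower, where 41.1% of all genes were called, 22.5% higher and 18.7% lower. Without CK replicate 3, 4 members were called in CK against Ctrl, and 5816 of all genes in place of 5565. In CytoD against Ctrl, 4 were called, 1 higher and 3 lower, where 37.9% of all genes were called, 19.1% higher and 18.9% lower. The libraries of the treated group and Ctrl did not overlap for 5 members in CytoD+CK, 3 in CK and 6 in CytoD, where they did not overlap for 63.4%, 50.1% and 61.6% of all tested genes. Counts this small do not set the members apart from all genes. The 3 comparisons share the Ctrl libraries.

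Between treated groups, 4 members were called in CytoD+CK against CytoD, all higher, where 15.8% of all genes were called higher and 30.1% in either direction. In CK against CytoD, 5 were called, all higher, where 22.9% of all genes were called higher and 39.8% in either direction. These comparisons share the CytoD libraries, and the second count was 3 with only CK and CytoD in the fit. In CytoD+CK against CK, 2 were called, Cav2 higher and Prkcdbp lower, where 11.6% of all genes were called, 4.43% higher and 7.17% lower. The libraries did not overlap for 5 members in CytoD+CK against CytoD, 5 in CK against CytoD and 3 in CytoD+CK against CK, where they did not overlap for 53.0%, 49.8% and 27.6% of all genes. The median log2 difference of the 7 members was 0.30 in CytoD+CK against CytoD and 0.32 in CK against CytoD, where the medians of all tested genes were 0.02 in both. No set test was run on the members.

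**Figure D4:**
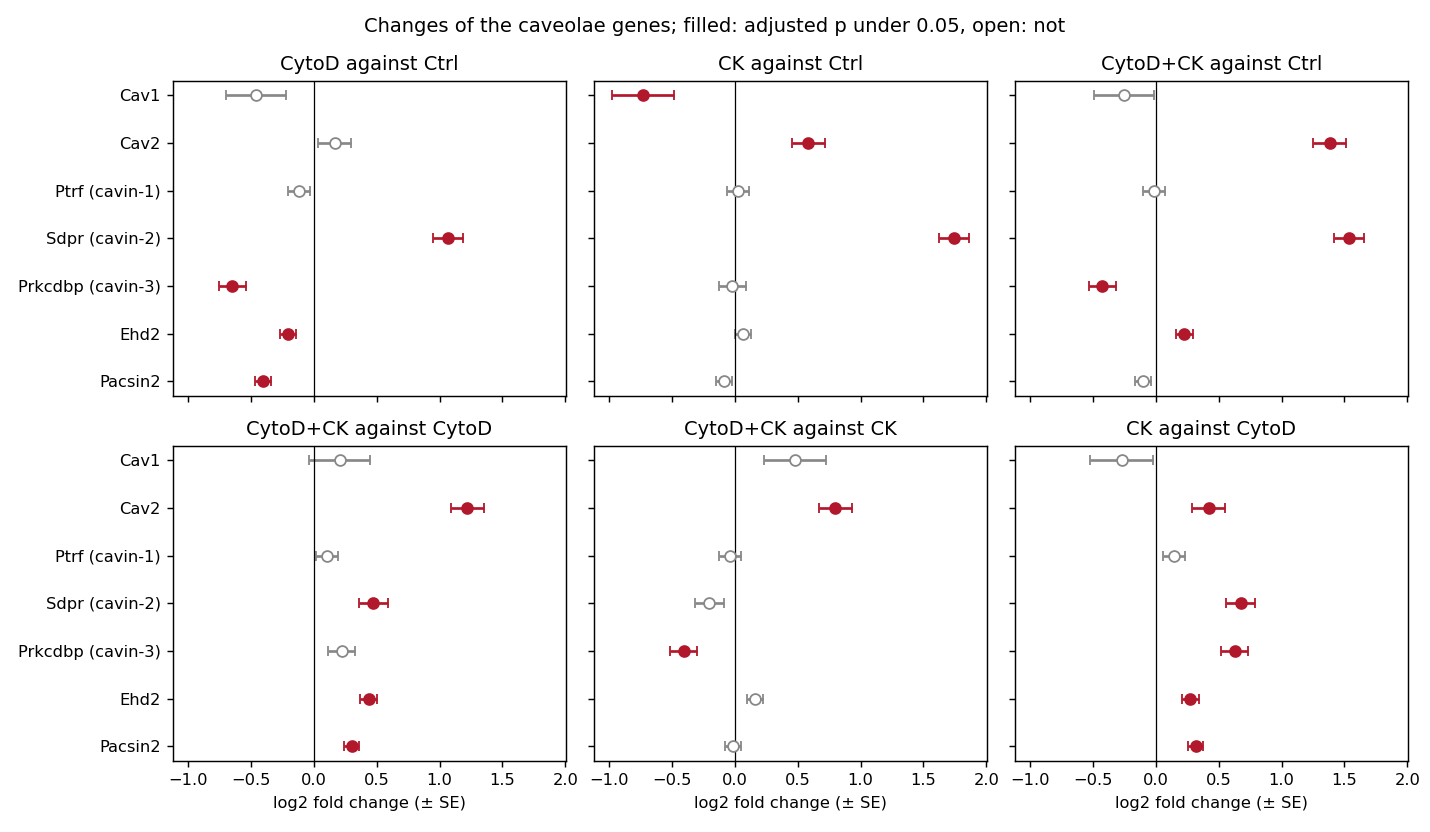
Log2 fold changes of the 7 caveolae genes with their SE in 6 comparisons, the first group named in each title being above 0 where a gene is higher in it. Filled points passed an adjusted p under 0.05 in the quasi-likelihood test of edgeR and open points did not. Sdpr has the largest increase in each of the 3 comparisons with Ctrl, and all called members are higher in CytoD+CK and CK than in CytoD.

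Whether the compounds acted independently on the log scale was tested by the interaction, the cytochalasin D change in CK666-treated cells minus that in cells without CK666. It was called for 4 members, positive for 3 and negative for 1, where 14.3% of all genes were called, 6.63% positive and 7.67% negative. For Sdpr the joint change was smaller than the sum of the separate changes, at 1.54 against 2.80 on the log2 scale, with an interaction of -1.27 (SE 0.17, adjusted p = 0.000538). For Pacsin2 it was -0.10 against -0.49 (interaction 0.39, SE 0.09, adjusted p = 0.0127). These calls for Sdpr and Pacsin2 held in all alternative settings.

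For Cav2 the joint change exceeded the sum, at 1.38 against 0.75 (interaction 0.63, SE 0.18, adjusted p = 0.0376), and for Ehd2 it was 0.23 against -0.14 (interaction 0.37, SE 0.09, adjusted p = 0.0199). The Cav2 interaction lost its call in 9 of 12 fits that left out 1 library, with adjusted p between 0.0511 and 0.0886, and kept it without CytoD+CK replicate 1, CK replicate 2 or CK replicate 3. The Ehd2 interaction lost its call without CytoD+CK replicate 2, CytoD replicate 2 or 3 or Ctrl replicate 3 (adjusted p between 0.0502 and 0.0610). The Prkcdbp interaction was 0.24 (adjusted p = 0.316) and was called at 0.45 without CK replicate 3 (adjusted p = 0.000982) and at 0.38 with the correction for gene length (adjusted p = 0.0063). For Cav1 the interaction was 0.94 (SE 0.34, adjusted p = 0.0881) and for Ptrf 0.08 (adjusted p = 0.707).

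**Figure D5:**
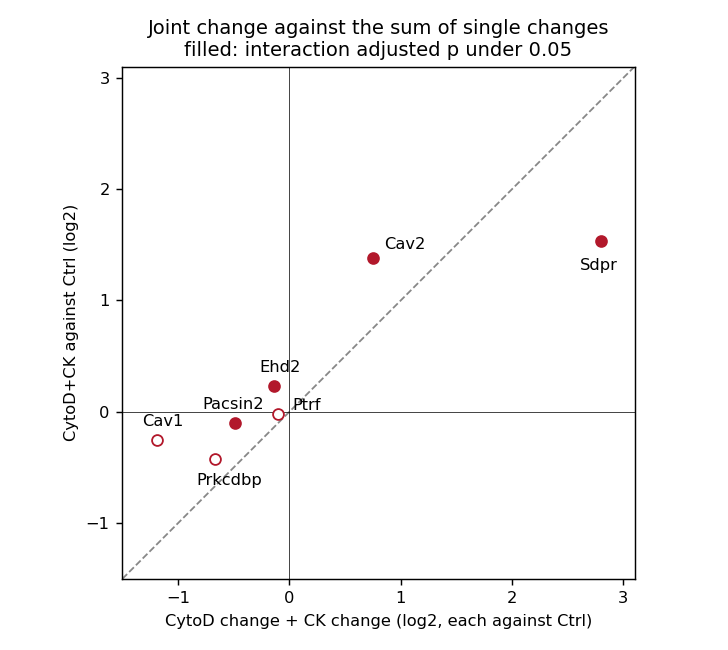
The log2 change of each caveolae gene in CytoD+CK against Ctrl (vertical axis) plotted over the sum of its log2 changes in CytoD and in CK against Ctrl (horizontal axis). The dashed line marks equal values, and filled points have an interaction past an adjusted p of 0.05. Sdpr lies below the line at 1.54 against 2.80, and Cav2 lies above it at 1.38 against 0.75.

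The members did not share a common pattern. By the root mean square difference of log2 CPM over the 12 libraries, after each gene's Ctrl mean was subtracted, the closest pair was Ptrf and Ehd2 (0.165) and the farthest Cav1 and Sdpr (1.74). The smallest distance is about that of Ehd2 from its own Ctrl mean (0.166), so it need not mean a shared pattern. Distances to Cav1 include the spread of a gene with 46 to 130 counts per library. The chromosome neighbours Cav1 and Cav2 differed by 1.12. By the same measure over 13527 other tested genes, those nearest to Cav2 were Ept1 (0.123), Fbxo45 (0.138) and Pfkfb3 (0.165). Those nearest to Sdpr were Ppip5k1 (0.154), Camk1g (0.182) and Slc24a3 (0.195). Those nearest to Prkcdbp were Rpsa (0.0780), Mvk (0.0804) and Rps2 (0.0830), of which Rpsa and Rps2 have near-identical copies in the genome, so their counts are uncertain. For Ptrf, Ehd2 and Pacsin2, whose own distances from the Ctrl mean were 0.110, 0.166 and 0.217, many genes lay close, the nearest being Chpf2 (0.0604), Sf3b3 (0.0496) and Zmynd19 (0.0522). For Cav1 the nearest was Tomt at 0.238, with Ralgps1 and Kctd10 next.

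Other genes of the caveolar families were called in either direction. Of 7 (Cav3, Murc, Ehd1, Ehd3, Ehd4, Pacsin1 and Pacsin3), 5 were tested, Cav3 and Pacsin1 being below the filter. In CytoD+CK against Ctrl, 1 rose and 1 fell, in CK against Ctrl none rose and 1 fell, and in CytoD against Ctrl 1 rose and 2 fell, where 46.0%, 41.1% and 37.9% of all tested genes were called. Ehd4, an endosomal relative of Ehd2, averaged 47.7 CPM in CytoD+CK, 49.7 CPM in CK, 75.3 CPM in CytoD and 131 CPM in Ctrl, and fell by 1.46, 1.40 and 0.80 on the log2 scale in the treated groups in that order (adjusted p = 5.2e-08, 1.61e-07 and 1.74e-05). Ehd1, a recycling endosome ATPase, averaged 309, 272, 165 and 228 CPM in the same groups, and like Ehd2 it was called higher in CytoD+CK and lower in CytoD against Ctrl (log2 0.44 and -0.46, adjusted p = 0.014 and 0.0137). Murc, the muscle cavin also called Cavin4, averaged 1.20 to 1.52 CPM and was called in no comparison.

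Partners at the caveolar neck and on actin fell on the whole where they were called. This list, like the others, was chosen with earlier results of these data known, so its counts and medians only describe it. Of 13 listed genes 12 were found and 11 tested, and none rose while 6, 6 and 7 fell in CytoD+CK, CK and CytoD against Ctrl, with a median log2 difference of -0.35, -0.34 and -0.42 where the medians of all tested genes were 0.04, 0.03 and 0.02. Of all tested genes, 21.6%, 18.7% and 18.9% were called lower in these comparisons. Flna, filamin A, which crosslinks actin and binds caveolin-1, averaged 2050 CPM in CytoD+CK, 1560 CPM in CK, 2470 CPM in CytoD and 3780 CPM in Ctrl, and fell by 0.88, 1.27 and 0.61 in that order of treated groups (adjusted p = 2.62e-06, 2.72e-07 and 0.000111). Ilk, integrin-linked kinase, averaged 172, 192 and 193 CPM in CytoD+CK, CK and CytoD, against 304 CPM in Ctrl, and fell in all 3 groups. Itgb1, the beta-1 integrin, averaged 876, 820 and 1170 CPM in them, against 1580 CPM in Ctrl, and also fell in all 3. The interaction was called for 6 of the 11, all positive, where 14.3% of all tested genes were called and 6.63% were positive. Dnm2, the dynamin that cuts pits from the membrane, was called in CytoD against Ctrl only among the comparisons with Ctrl (-0.19, adjusted p = 0.032).

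Among 12 genes for proteins that caveolae hold or regulate, 11 were tested and Nos3 was below the filter. In CytoD+CK against Ctrl 5 rose and 2 fell, in CK against Ctrl 5 rose and 2 fell, and in CytoD against Ctrl 4 rose and none fell. Of all tested genes, 24.4% rose and 21.6% fell in CytoD+CK, 22.5% rose and 18.7% fell in CK, and 19.1% rose and 18.9% fell in CytoD. Cd36, a fatty acid translocase, averaged 83.1, 56.9 and 8.44 CPM in CytoD+CK, CK and CytoD, against 0.492 CPM in Ctrl. Slc2a4, the insulin-responsive glucose transporter, averaged 9.41, 6.08 and 3.62 CPM, against 1.75 CPM in Ctrl, and Kcnma1, a potassium channel, averaged 7.49, 4.33 and 3.59 CPM, against 0.400 CPM in Ctrl. All 3 rose in each treated group. Insr, the insulin receptor, rose in CytoD+CK and CK (log2 1.25 and 0.75, adjusted p = 2.47e-05 and 0.00175). Pdgfrb, the PDGF receptor beta, fell in these groups (log2 -1.05 and -0.76, adjusted p = 3.91e-07 and 1.17e-05). Igf1r also fell in CytoD+CK and CK (log2 -0.72 and -0.87, adjusted p = 0.000682 and 0.000223). Scarb1 rose in both (log2 1.38 and 1.26, adjusted p = 4.11e-06 and 1.63e-05).

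The flotillins and the clathrin coat, which serve other routes of uptake, gave 0 genes higher and 6 lower of 12 in CytoD+CK against Ctrl, 0 and 7 in CK and 1 and 5 in CytoD. The share of all tested genes called lower was 21.6%, 18.7% and 18.9%, and the share called higher 24.4%, 22.5% and 19.1%. Ap2a2, an adaptor subunit, averaged 127, 134 and 112 CPM in CytoD+CK, CK and CytoD, against 182 CPM in Ctrl, and fell in all 3 groups. Flot1, flotillin 1, averaged 77.9, 78.0 and 82.3 CPM, against 102 CPM in Ctrl, and fell in all 3. Dab2, a clathrin adaptor, fell in CytoD+CK and CK (log2 -0.56 and -0.48, adjusted p = 0.00369 and 0.0118).

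Marker levels of other cell types moved with the groups. The sum of the 5 adipocyte markers Plin1, Adipoq, Lipe, Fabp4 and Cfd was 1930 to 2760 CPM in CytoD+CK, 1140 to 2030 CPM in CK, 401 to 420 CPM in CytoD and 79.7 to 89.9 CPM in Ctrl, with none at 0 in any group. All 5, and Pparg, the adipocyte transcription factor, rose in each treated group against Ctrl. The sum of the 4 smooth muscle markers Acta2, Tagln, Cnn1 and Myh11 was 392 to 494 CPM in CytoD+CK, 673 to 967 CPM in CK, 553 to 591 CPM in CytoD and 3320 to 3450 CPM in Ctrl. Acta2 carried most of that sum, averaging 367, 700 and 498 CPM in CytoD+CK, CK and CytoD, against 3040 CPM in Ctrl, whereas Myh11 averaged 0.440, 0.647 and 0.615 CPM, against 0.467 CPM in Ctrl. Mean Cav2 and Sdpr levels were above Ctrl in the 3 groups whose adipocyte sum was above Ctrl. Mean Cav1, Prkcdbp and Pacsin2 levels were below Ctrl in the same 3 groups, and those of Ptrf and Ehd2 went either way. Not all of these differences passed the test, among them that of Cav2 in CytoD. The part of the marker changes in the member results was not tested. In these bulk samples, a larger number of cells of a type and more RNA per cell cannot be told apart.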

How the data were processed

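RNA from 12 libraries of mouse marrow stromal cells, 3 in each of 4 groups, was sequenced. The authors' deposited table gives read counts per gene, per the file headers, together with RPKM values that the authors made from those counts and that were not used in any test. Per the submitters' processing notes, CASAVA 1.9, TopHat and HTSeq were used, and the build named there is the human hg19, whereas symbols and coordinates in the table are those of mouse build GRCm38. Library totals of 48930210 to 69269716 counts gave Cav1 only 46 to 130 counts per library. Every count was even, so counting error may be larger than the counts imply, and it is unknown whether counting used strand.

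From the counts, genes were kept with filterByExpr (minimum count 10) in edgeR 4.0.16 under R 4.3.3, TMM scaled the libraries, and 4 group means were fitted by the quasi-likelihood model to all 12 libraries (common biological coefficient of variation 0.115). P-values were two-sided and adjusted by Benjamini and Hochberg over 13534 genes within each of 7 comparisons, with no adjustment across comparisons. The 95% intervals are the log2 difference plus or minus a normal multiple of the SE. Ratios within libraries were compared by an exact permutation test. Pattern distances used log2 CPM with a prior count of 2. The fit code was run on simulated counts with known changes. The simulation had neither all-even counts nor a library set apart like CK replicate 3, so it does not cover these features. Alternatives were RLE and upper quartile scaling, no filter, DESeq2 1.42.0, only the groups compared, a replicate block, halved counts, removal of Rn45s, a gene length offset (lowess span 0.3) and leaving out each library. The members and lists were chosen with earlier results of these data known. The genes named beside the members were the called list genes with the largest changes, up to 3 in each comparison, and the 3 genes of nearest pattern to each member, from which some are printed. Murc, Dnm2, Insr, Igf1r, Scarb1, Pdgfrb, Itgb1, Flot1 and Ilk are also named outside that rule in some comparisons, chosen after their values were seen. The promoter sequences are from RefSeq.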

Additional observations from a re-analysis of the deposited data

Results flagged for a closer look

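For 4 members the change with cytochalasin D differed by a tested interaction between cells with and without CK666. The interaction was called for 14.3% of all tested genes, 6.63% positive and 7.67% negative. The Sdpr interaction was -1.27 on the log2 scale, its change with cytochalasin D being -0.20 in the presence of CK666 and 1.06 in its absence. The Cav2 interaction was 0.63, from 0.80 with CK666 and 0.16 without it. The Pacsin2 interaction was 0.39, from -0.02 with CK666 and -0.40 without it, and the Ehd2 interaction was 0.37, from 0.16 with CK666 and -0.21 without it. Among 12 fits that left out 1 library, the Cav2 call was lost in 9 and the Ehd2 call in 4.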

How the results depend on the processing

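Of 770 values of the members under alternative settings, 712 kept their direction and side of the threshold, 33 lost a call, 7 gained one and 18 changed sign, none of them a called value. With only the groups compared in the fit, 1 member was called in CytoD+CK against CK in place of 2, and 3 in CK against CytoD in place of 5. Leaving out each library gave 1 to 2 members called in CytoD+CK against CK and 2 to 5 for the interaction. The cause of these shifts was not tested. Over all genes, 1570 were called in CytoD+CK against CK, against 459 with only these groups in the fit, 778 and 745 without CytoD+CK replicate 2 or 3 and 2563 without CK replicate 2. In CK against CytoD 5380 were called, against 3558 with only these groups. For the interaction 1935 were called, against 3396 without CK replicate 3 and 1094, 1115, 1112 and 1114 without CytoD replicate 2 or 3 or Ctrl replicate 2 or 3.

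The sign changes were in values near 0. Ptrf in CK against Ctrl (0.02) became -0.014 with RLE, -0.001 with no filter, -0.009 with halved counts, -0.008 without Rn45s and -0.013 with DESeq2, and ranged from -0.054 to 0.059 when each library was left out. With each library left out, Ptrf ranged from -0.124 to 0.058 in CytoD+CK against Ctrl, -0.001 to 0.180 against CytoD, -0.145 to 0.036 against CK and -0.023 to 0.158 for the interaction. Prkcdbp ranged from -0.241 to 0.065 in CK against Ctrl, and Pacsin2 from -0.033 to 0.030 in CytoD+CK against CK. Per Cav1, Pacsin2 ranged from -0.123 to 0.211 in CytoD and from -0.028 to 0.299 in CytoD+CK against Ctrl.

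Deviations of same-numbered libraries correlated between -0.079 and 0.256, with 4 of 18 pairs over 0.1. Differently numbered libraries were not set beside them, so these values do not show whether the replicate numbers pair the libraries. With a replicate block, no call of a member changed, the Sdpr log2 change in CytoD against Ctrl, for example, being 1.072 (adjusted p = 4.28e-05). Cav1 is limited by its counts of 46 to 130 per library, or 23 to 65 when halved.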
